A study of Mus musculus with 9 samples.

Results

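Astrocytes were followed through 10 marker genes on 9 Clariom S Mouse arrays, of 22206 transcripts and 19505 distinct genes measured. The genes were listed by name. Gfap, Vim and Serpina3n are markers of reactive astrocytes, and Aqp4, Slc1a2, Slc1a3, Aldh1l1, Gja1, Ntsr2 and S100b are markers of resting, homeostatic astrocytes. Each gene had 1 transcript on the array. There were 3 groups of 3 arrays each: SAMP8 TFQA, SAMP8 water and SAMR1 water. SAMP8 is a mouse strain bred for accelerated senescence, and SAMR1 is the senescence-resistant strain used as its control. All mice were male and were 6 months old before the 37 days of treatment. SAMP8 TFQA mice received 3,4,5-tri-feruloylquinic acid (TFQA), a polyphenol, at 1 mg/kg daily by gavage for 37 days, and the other mice received water. No SAMR1 mice received TFQA, so its effect in the resistant strain was not measured. By the paper's account the arrays hold hippocampal RNA, and by the labels they hold brain RNA of neural stem cells. Nothing states that the arrays of a group came from separate mice, so the p-values measure the spread between these arrays, which may be partly technical.

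Astrocytes take up glutamate and potassium, contact blood vessels with their endfeet and are coupled to each other by gap junctions. After injury, in inflammation and with age they can become reactive, a state in which the intermediate filament proteins GFAP and vimentin accumulate and secreted proteins such as serpin A3N are made. JAK-STAT3 signaling is a known route to GFAP induction. Homeostatic markers can be kept or lost in that state. In RNA from whole tissue, fewer astrocytes and less RNA per astrocyte cannot be told apart.

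On arrays with a median log2 signal of 6.76 to 6.81, the median level of 10 neuronal markers was 13.12 in SAMP8 TFQA, 13.13 in SAMP8 water and 13.29 in SAMR1 water. The median of 9 oligodendrocyte markers was 10.13, 9.91 and 10.29 in the same groups, and that of 11 markers of neural stem and newborn cells was 6.82, 6.92 and 7.25. The stem and newborn cell markers spanned levels from 3.91 to 4.12 in Tfap2c to 10.24 to 10.37 in Lpar1. Group means ran from 10.77 in Rbfox3 to 18.99 in Camk2a among the neuronal markers. They ran from 8.48 in Mog to 17.55 in Mbp among the oligodendrocyte markers, and from 6.01 in Otx2 to 19.25 in Ttr among 8 choroid plexus markers. Signals of different genes depend on their probes. Every group thus held high signals of genes of mature neurons, oligodendrocytes and choroid plexus, beside those of stem and newborn cells. The brain region was not tested. All 10 astrocyte genes lay above the level that separates the dimmest 40% of transcripts (mean log2 signal 5.90). SAMP8 TFQA replicate 2 stood apart from the other arrays: 8 measured markers of striatal neurons had a mean log2 deviation of 3.44 there, against -0.93 to 0.66 on the 8 other arrays. Replicate 2 was also the highest array of its group in these markers in SAMP8 water (-0.19) and SAMR1 water (0.66). In SAMP8 TFQA vs. SAMP8 water the differences of the 10 genes are given with and without SAMP8 TFQA replicate 2. Against SAMR1 water this was done for some of them. The further gene lists were not refitted without any array.

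The start regions of the 3 reactive genes and of Ntsr2 are shown because these genes had the largest differences between groups. Each line is the RefSeq sequence (GRCm38.p6) of 250 bases before to 50 bases after an annotated transcript start, read along the gene (in Ntsr2 and Serpina3n this start lies inside the bounds of the gene). Capitals mark a STAT motif (TTCNNNGAA, the same on both strands) in Gfap and Ntsr2 and a TATA box (TATAAA, searched on both strands) in Vim. Serpina3n had neither.
Gfap, chr11:102897151-102897450, minus strand: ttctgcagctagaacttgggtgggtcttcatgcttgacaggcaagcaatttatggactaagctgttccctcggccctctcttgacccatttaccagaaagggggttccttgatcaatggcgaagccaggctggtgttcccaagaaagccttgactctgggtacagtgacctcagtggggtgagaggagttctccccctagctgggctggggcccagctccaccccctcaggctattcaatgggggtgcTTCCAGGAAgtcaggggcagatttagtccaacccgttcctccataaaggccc
Ntsr2, chr12:16653220-16653519, plus strand: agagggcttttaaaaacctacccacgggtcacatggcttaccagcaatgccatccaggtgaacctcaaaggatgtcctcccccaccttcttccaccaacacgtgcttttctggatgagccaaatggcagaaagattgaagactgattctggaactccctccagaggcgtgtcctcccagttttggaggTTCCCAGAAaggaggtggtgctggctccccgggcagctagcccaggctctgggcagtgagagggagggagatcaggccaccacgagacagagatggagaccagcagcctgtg
Vim, chr2:13574061-13574360, plus strand: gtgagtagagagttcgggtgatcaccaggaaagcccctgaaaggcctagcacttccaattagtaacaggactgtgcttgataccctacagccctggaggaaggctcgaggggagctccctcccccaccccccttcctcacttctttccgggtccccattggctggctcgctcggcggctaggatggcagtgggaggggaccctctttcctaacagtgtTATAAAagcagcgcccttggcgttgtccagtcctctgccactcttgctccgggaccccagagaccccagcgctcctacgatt
Serpina3n, chr12:104406458-104406757, plus strand: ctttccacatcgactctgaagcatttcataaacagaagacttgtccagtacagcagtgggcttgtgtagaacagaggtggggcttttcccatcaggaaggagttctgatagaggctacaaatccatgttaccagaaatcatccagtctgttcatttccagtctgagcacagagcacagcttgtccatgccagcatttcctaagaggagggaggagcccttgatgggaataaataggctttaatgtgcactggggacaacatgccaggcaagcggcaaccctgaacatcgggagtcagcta

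Promoters were found for 9 of the 10 genes, the exception being Aqp4. The STAT motif was present in 3 of the 9, namely Gfap (beginning 2 bases before the start), Ntsr2 (62 bases before) and Slc1a3 (96 bases before), and in 8.3% of all 32851 promoters of this length. The TATA box was present in Vim (32 bases before) and Slc1a3 (161 bases before, on the opposite strand), and in 13.6% of all promoters. An AP-1 motif (TGANTCA) was found in Gja1 and in 7.81% of all promoters, and an E-box (CACGTG) in Ntsr2 and in 7.15%. Neither an NF-kB motif (1.47% of all promoters) nor an NFI motif (0.0365%), both searched on both strands, was found in any of the 9. These matches describe letters in the window and show no binding. Gfap and Ntsr2, which both hold the STAT motif, differed in opposite directions between the strains.

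The first comparison, SAMP8 water vs. SAMR1 water, asks how the senescence-prone strain differs from its control. Ntsr2 was 2.06-fold lower in SAMP8 water, while Gfap was 1.91-fold higher and Serpina3n 1.76-fold higher. Ntsr2 was the only one of the 10 genes that passed a Benjamini-Hochberg adjusted p under 0.05 over all transcripts (limma), a threshold that 0.509% of all transcripts passed. The study's threshold asked for a fold change over 1.1 and a p under 0.05 without adjustment. At it 2 genes were higher and 1 was lower, where 3.4% of all transcripts were higher and 2.7% lower (6.09% in either direction). In these same 3 genes all arrays of SAMP8 water lay on one side of those of SAMR1 water, as did 5.77% of all transcripts above and 6.04% below (11.8% in either direction). The median log2 fold change of the 10 genes was 0.10, against -0.01 over all transcripts, and 9 of the 10 values were above 0.

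Gfap, the main filament protein gene of astrocytes (GRCm38.p6, chr11:102887336-102897200), had log2 signals of 12.56, 12.87 and 12.29 in SAMP8 water and 11.67, 11.90 and 11.34 in SAMR1 water. Every SAMP8 water array lay above every SAMR1 water array. The means were 12.57 ± 0.29 in SAMP8 water and 11.64 ± 0.28 in SAMR1 water (SD, n = 3 each), a log2 fold change of 0.94 (standard error 0.19, 95% interval 0.52 to 1.36). The adjusted p of 0.0718 (limma) missed the threshold. It was 0.0143 when the variances were moderated with a trend and robustly, and 0.0358 when the dimmest 40% of transcripts were left out. These were the only 2 of 18 alternatives in which Gfap passed the adjusted threshold. The adjusted p was 0.155 (limma) in a fit of only 2 groups. Without SAMR1 water replicate 3 it was 0.313, and without SAMP8 water replicate 2 it was 0.280 (both limma).

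Serpina3n, an acute-phase inhibitor of serine proteases (chr12:104406646-104414334), had log2 signals of 12.59, 12.03 and 12.50 in SAMP8 water and 11.67, 11.50 and 11.51 in SAMR1 water. These groups did not overlap either. The log2 fold change was 0.81 (standard error 0.27, 95% interval 0.22 to 1.40), with an adjusted p of 0.505 (limma). Serpina3n lies in a cluster of closely related Serpina3 genes, so its probes may also detect a neighboring copy.

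Vim, the filament protein vimentin, which is also made by endothelial and meningeal cells (chr2:13574311-13582826), had log2 signals of 8.06, 8.47 and 7.58 in SAMP8 water and 7.57, 7.76 and 7.45 in SAMR1 water. The groups overlapped, because SAMP8 water replicate 3 lay below SAMR1 water replicate 2. The log2 fold change was 0.44 with a 95% interval of -0.03 to 0.91 (adjusted p = 0.827, limma). Vim had the widest spread within SAMP8 water of the reactive genes (SD 0.45), and its difference was 0.23 without SAMP8 water replicate 2 and 0.67 without SAMP8 water replicate 3.

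**Figure D1:**
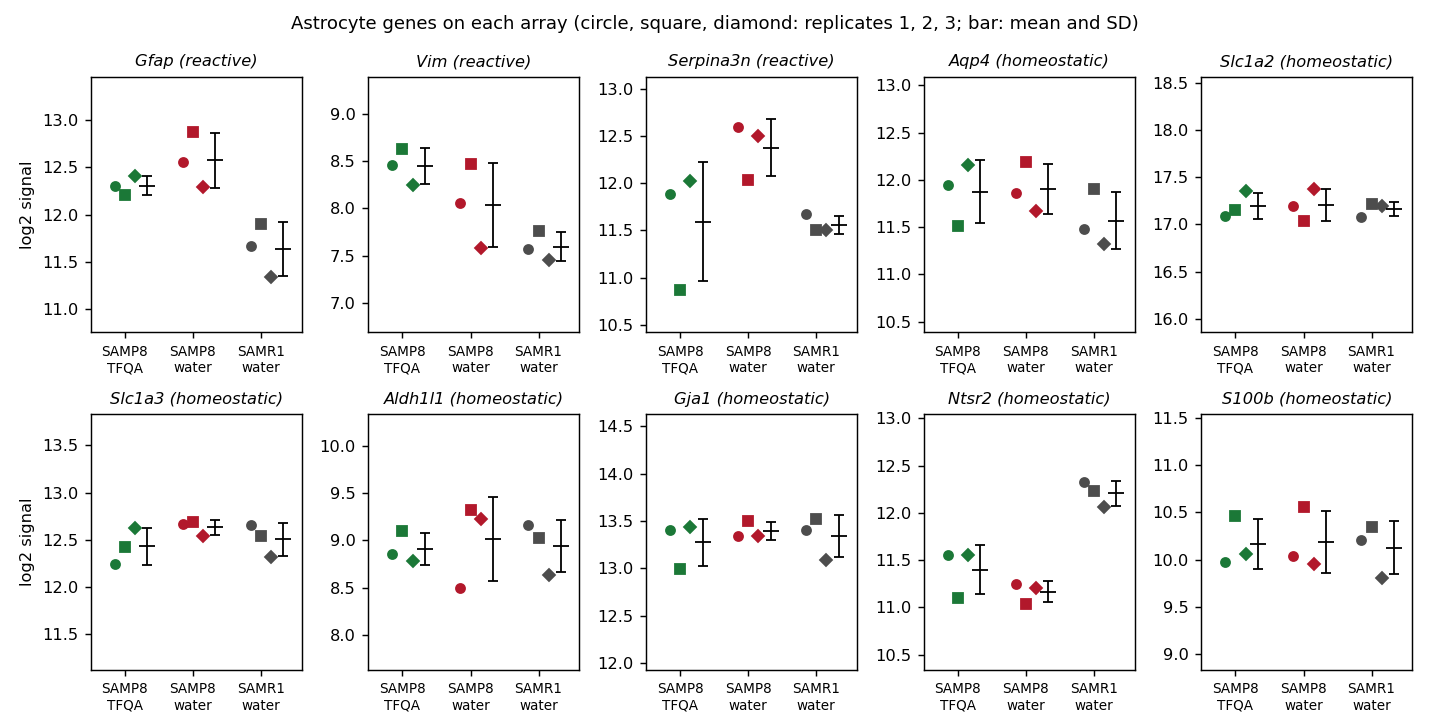
Log2 signal of each of the 10 astrocyte genes (y axis, the same span in every panel) on each array of SAMP8 TFQA, SAMP8 water and SAMR1 water, with the replicate shown by the symbol and the bar giving the mean and SD of 3 arrays. Gfap is lowest in SAMR1 water (11.34 to 11.90), Ntsr2 is highest there (12.06 to 12.33), and Serpina3n is highest in SAMP8 water (12.03 to 12.59).

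Ntsr2, a neurotensin receptor that is largely restricted to astrocytes in the brain (chr12:16653443-16660236), had log2 signals of 11.25, 11.04 and 11.21 in SAMP8 water and 12.33, 12.23 and 12.06 in SAMR1 water. All SAMP8 water arrays lay below all SAMR1 water arrays. Ntsr2 averaged 11.17 ± 0.11 in SAMP8 water and 12.21 ± 0.14 in SAMR1 water (SD, n = 3 each) and thus fell by 1.04 as a log2 fold change (standard error 0.17, 95% interval -1.41 to -0.67, adjusted p = 0.0136, limma). The difference stayed between -1.11 and -0.98 when any 1 array was left out, but the adjusted p (limma) missed the threshold, at 0.0505 to 0.0836, without SAMR1 water replicate 1 or 2 or any of the 3 SAMP8 water arrays. Whether the strains differ in sequence under the probes of Ntsr2, or of the other genes, was not tested.

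The other 6 homeostatic genes overlapped between the strains. Aqp4, the water channel of astrocyte endfeet (chr18:15389394-15410982), had the largest difference of these, 0.34 on the log2 scale with a 95% interval of -0.14 to 0.82. Its log2 signals were 11.86, 12.19 and 11.67 in SAMP8 water and 11.48, 11.90 and 11.32 in SAMR1 water. Slc1a2 and Slc1a3 encode the glial glutamate transporters GLT-1 and GLAST (chr2:102658239-102790784 and chr15:8634124-8710807). Slc1a2 ranged from 17.04 to 17.38 in SAMP8 water and from 17.08 to 17.22 in SAMR1 water, a log2 fold change of 0.04 with a 95% interval of -0.29 to 0.38. Slc1a3 ranged from 12.54 to 12.69 in SAMP8 water and from 12.32 to 12.66 in SAMR1 water, with a log2 fold change of 0.13 and an interval of -0.22 to 0.48. Neither interval reached the difference of 0.94 seen in Gfap.

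Aldh1l1, a folate enzyme used as a general astrocyte marker (chr6:90550768-90599171), had a log2 fold change of 0.08 with a wider interval of -0.42 to 0.57, and its SAMP8 water replicate 1 (8.50) lay well below replicates 2 and 3 (9.32 and 9.22). Gja1, the main gap junction connexin of astrocytes (chr10:56377300-56390419), averaged 13.39 ± 0.09 in SAMP8 water and 13.34 ± 0.22 in SAMR1 water (SD, n = 3 each), a log2 fold change of 0.05 with an interval of -0.33 to 0.44. S100b, a calcium-binding protein of astrocytes that some oligodendrocyte-lineage cells also make (chr10:76253836-76261319), averaged 10.18 ± 0.33 in SAMP8 water and 10.12 ± 0.28 in SAMR1 water (SD, n = 3 each), a log2 fold change of 0.06 with an interval of -0.41 to 0.53. With upper bounds of 0.57, 0.44 and 0.53, the values of these 3 genes do not show equal expression.

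The second comparison, SAMP8 TFQA vs. SAMP8 water, asks what the treatment did within the prone strain. No astrocyte gene passed the adjusted threshold, and neither did any transcript on the array (0%, limma). At the study's threshold 1 of the 10 genes, Serpina3n, was lower and none was higher, where 3.76% of all transcripts were lower and 3.36% higher (7.12% in either direction). It was also the only one of the 10 whose groups did not overlap, where 5.91% of all transcripts lay fully below and 5.89% fully above (11.8% in either direction). The median log2 fold change of the 10 genes was -0.07, against 0.01 over all transcripts. This comparison and the first share the SAMP8 water arrays, so that a high or low value in that group enters both with opposite signs.

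Serpina3n had log2 signals of 11.89, 10.87 and 12.02 in SAMP8 TFQA and 12.59, 12.03 and 12.50 in SAMP8 water. The groups did not overlap, but SAMP8 TFQA replicate 3 lay only just below SAMP8 water replicate 2, and the lowest value was that of SAMP8 TFQA replicate 2, the array with high striatal markers. The log2 fold change was -0.78 (standard error 0.27, 95% interval -1.37 to -0.19, adjusted p = 0.587, limma). Without SAMP8 TFQA replicate 2 it was -0.42 and no longer passed the study's threshold.

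Gfap had log2 signals of 12.30, 12.21 and 12.41 in SAMP8 TFQA, of which only replicate 2 lay below the range of 12.29 to 12.87 in SAMP8 water. Its log2 fold change was -0.27 with a 95% interval of -0.69 to 0.15 (adjusted p = 0.791, limma). Vim had log2 signals of 8.46, 8.63 and 8.25 in SAMP8 TFQA and 8.06, 8.47 and 7.58 in SAMP8 water, a log2 fold change of 0.41 with an interval of -0.06 to 0.88 (adjusted p = 0.727, limma). Without SAMP8 TFQA replicate 2, Gfap was at -0.22 and Vim at 0.32. The 3 reactive genes therefore did not share a direction after TFQA, and Vim lay on the opposite side of 0 from Serpina3n and Gfap.

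Ntsr2 had log2 signals of 11.55, 11.10 and 11.55 in SAMP8 TFQA and 11.25, 11.04 and 11.21 in SAMP8 water. SAMP8 TFQA replicates 1 and 3 lay above all SAMP8 water arrays and replicate 2 lay among them. The log2 fold change was 0.23 (95% interval -0.14 to 0.60, adjusted p = 0.793, limma), and 0.38 without SAMP8 TFQA replicate 2, when it passed the study's threshold. The other 6 homeostatic genes overlapped between the groups, with log2 fold changes of -0.20 in Slc1a3, -0.12 in Gja1, -0.10 in Aldh1l1, -0.03 in Aqp4, -0.02 in S100b and -0.01 in Slc1a2. Without SAMP8 TFQA replicate 2, Gja1 was at 0.03, Aqp4 at 0.15 and Slc1a2 at 0.01, each with the opposite sign, and Slc1a3 was at -0.20, Aldh1l1 at -0.20 and S100b at -0.17. Among them the narrowest interval was that of Slc1a2, from -0.34 to 0.32, and the widest was that of Aldh1l1, from -0.60 to 0.39.

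**Figure D2:**
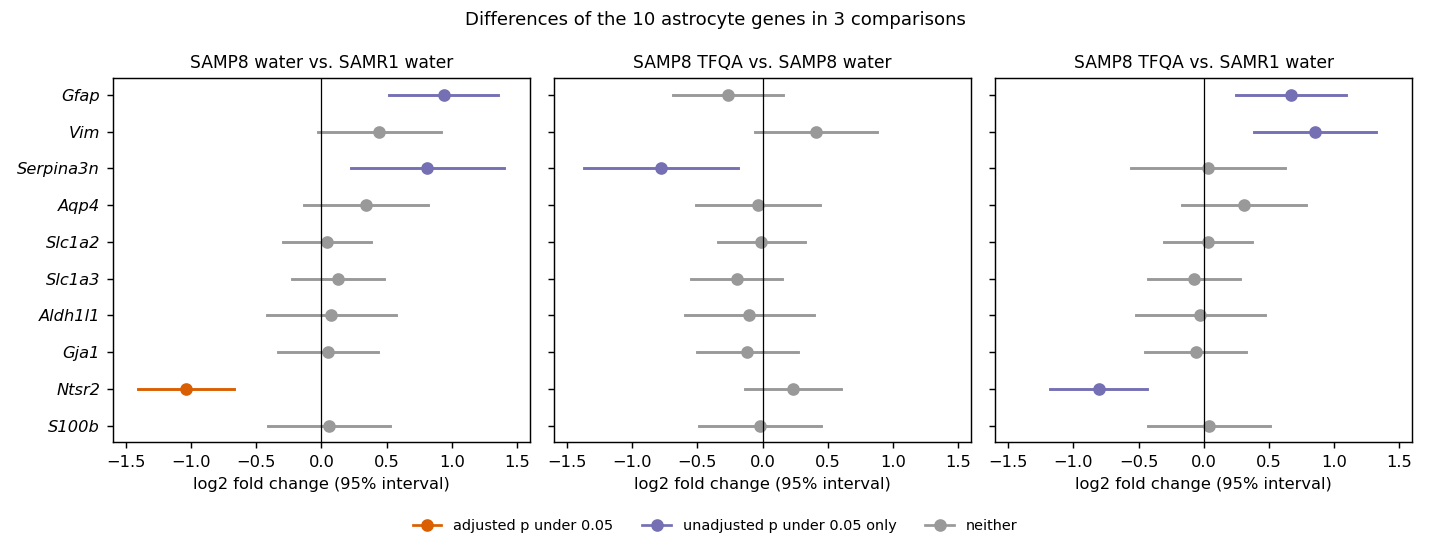
Log2 fold change (x axis) of the 10 astrocyte genes in the 3 comparisons, with bars giving the 95% interval from limma and colors giving the threshold passed. Ntsr2 in SAMP8 water vs. SAMR1 water (-1.04) is the only value past the adjusted threshold, and Gfap lies at 0.94, -0.27 and 0.67 in the 3 panels.

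The third comparison, SAMP8 TFQA vs. SAMR1 water, places the treated prone mice against the resistant strain. Vim was 1.81-fold higher and Gfap 1.59-fold higher in SAMP8 TFQA, and Ntsr2 was 1.75-fold lower. None of the 10 genes passed the adjusted threshold, which 0.576% of all transcripts passed (limma), and 2 higher and 1 lower passed the study's threshold, where 4.07% of all transcripts were higher and 3.99% lower (8.06% in either direction). The log2 fold change was 0.85 in Vim (95% interval 0.38 to 1.32, adjusted p = 0.170), 0.67 in Gfap (0.25 to 1.09, adjusted p = 0.290) and -0.81 in Ntsr2 (-1.18 to -0.44, adjusted p = 0.0721, all limma). The arrays of these groups did not overlap in these 3 genes, where 5.97% of all transcripts lay fully above and 6.32% fully below (12.3% in either direction). Serpina3n differed by 0.03 with an interval of -0.56 to 0.62, and by 0.395 without SAMP8 TFQA replicate 2. Without that array Vim was at 0.76, Gfap at 0.72 and Ntsr2 at -0.66, and all 3 still passed the study's threshold. The difference of Aqp4 was 0.31 (95% interval -0.17 to 0.78) with all arrays and 0.49 without SAMP8 TFQA replicate 2, when it passed the study's threshold as well. Log2 fold changes of the other 5 homeostatic genes lay between -0.07 (Slc1a3) and 0.04 (S100b), and the widest interval among them, that of Aldh1l1, ran from -0.52 to 0.47.

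The order of the groups thus differed between genes. Mean Gfap was 12.31 ± 0.10 in SAMP8 TFQA, 12.57 ± 0.29 in SAMP8 water and 11.64 ± 0.28 in SAMR1 water (SD, n = 3 each), and the SAMP8 groups overlapped. Mean Vim was 8.45 ± 0.19 in SAMP8 TFQA, 8.04 ± 0.45 in SAMP8 water and 7.59 ± 0.16 in SAMR1 water, where only SAMP8 TFQA and SAMR1 water did not overlap. Mean Serpina3n was 11.59 ± 0.63 in SAMP8 TFQA, 12.37 ± 0.30 in SAMP8 water and 11.56 ± 0.10 in SAMR1 water, where SAMP8 TFQA and SAMR1 water overlapped. Mean Ntsr2 was 11.40 ± 0.26 in SAMP8 TFQA, 11.17 ± 0.11 in SAMP8 water and 12.21 ± 0.14 in SAMR1 water, again with overlap of the SAMP8 groups.

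A list of 50 further measured genes of astrocyte identity and function, of 52 listed, gave the setting for these values. In SAMP8 water vs. SAMR1 water 2 were higher and 1 lower at the study's threshold, with a median of -0.045 (-0.01 over all transcripts). Agt, the angiotensinogen gene that astrocytes express, ranged from 9.90 to 10.48 in SAMP8 water and from 8.72 to 9.81 in SAMR1 water, a log2 fold change of 0.88 (standard error 0.27, adjusted p = 0.409, limma). Slc39a12, a zinc transporter, was at 0.48 (adjusted p = 0.621) and Slc25a18, a mitochondrial glutamate carrier, at -0.53 (adjusted p = 0.545). After TFQA, in SAMP8 TFQA vs. SAMP8 water, 1 gene was higher and 1 lower, with a median of -0.02 (0.01 over all transcripts). Mertk, a receptor kinase for engulfment, was at 0.70 (adjusted p = 0.587) and Bcan, the matrix proteoglycan brevican, at -0.35 (adjusted p = 0.689). Against SAMR1 water, 3 genes of SAMP8 TFQA were higher and 3 lower, among them Agt at 0.87 (adjusted p = 0.349), Bcan at -0.53 (adjusted p = 0.322) and Slc25a18 at -0.51 (adjusted p = 0.487). None of the 50 genes passed the adjusted threshold in any of the 3 comparisons, and 3, 2 and 6 of them passed the study's threshold, against 6.09%, 7.12% and 8.06% of all transcripts.

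Lists of genes induced in reactive astrocytes did not include the 3 reactive genes above. In SAMP8 water vs. SAMR1 water 1 of 10 genes of a general list, 3 of 10 of an inflammation list and 1 of 12 of an ischemia list passed the study's threshold, against 6.09% of all transcripts. The counts were 1 of 10, 0 of 10 and 0 of 12 in SAMP8 TFQA vs. SAMP8 water, against 7.12%, and 2 of 10, 2 of 10 and 1 of 12 in SAMP8 TFQA vs. SAMR1 water, against 8.06%. Of 10 genes induced in several kinds of reactive astrocytes, Cp, the copper oxidase ceruloplasmin, was higher at the study's threshold in SAMP8 water vs. SAMR1 water, at 0.65 (adjusted p = 0.802, groups overlapping), and in SAMP8 TFQA vs. SAMR1 water, at 1.08 (adjusted p = 0.207). The lipocalin Lcn2 was at 0.42 in SAMP8 TFQA vs. SAMP8 water (adjusted p = 0.689) and the chemokine gene Cxcl10 at 0.56 in SAMP8 TFQA vs. SAMR1 water (adjusted p = 0.570), both with group means below the level of the dimmest 40%. Of 12 measured genes induced after ischemia, only Tm4sf1, a membrane protein, passed the study's threshold, at 0.44 in SAMP8 water vs. SAMR1 water and 0.61 in SAMP8 TFQA vs. SAMR1 water, and none did in SAMP8 TFQA vs. SAMP8 water.

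Of 10 measured genes induced in inflammation, 2 were higher and 1 lower at the study's threshold in SAMP8 water vs. SAMR1 water (6.09% of all transcripts in either direction), and the lower gene also passed the adjusted threshold (0.509% of all transcripts), with a list median of 0.235 (-0.01 over all transcripts). H2-T23, a nonclassical MHC class I gene, ranged from 6.47 to 6.82 in SAMP8 water and from 5.64 to 6.07 in SAMR1 water, a log2 fold change of 0.81 (adjusted p = 0.216, limma). Serping1, the complement C1 inhibitor, was at 0.54 (adjusted p = 0.806). H2-D1, a classical class I gene, fell by 0.82 (95% interval of the log2 fold change -1.17 to -0.47, adjusted p = 0.0457, limma). Its mean was 3.68 ± 0.15 in SAMP8 water and 4.50 ± 0.16 in SAMR1 water (SD, n = 3 each), among the dimmest 40% in both. MHC class I genes are related in sequence, so that probes may not fully separate them. In SAMP8 TFQA vs. SAMR1 water H2-T23 was at 1.03 (adjusted p = 0.0571) and H2-D1 at -0.65 (adjusted p = 0.149), and no gene of this list passed the study's threshold in SAMP8 TFQA vs. SAMP8 water.

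**Figure D3:**
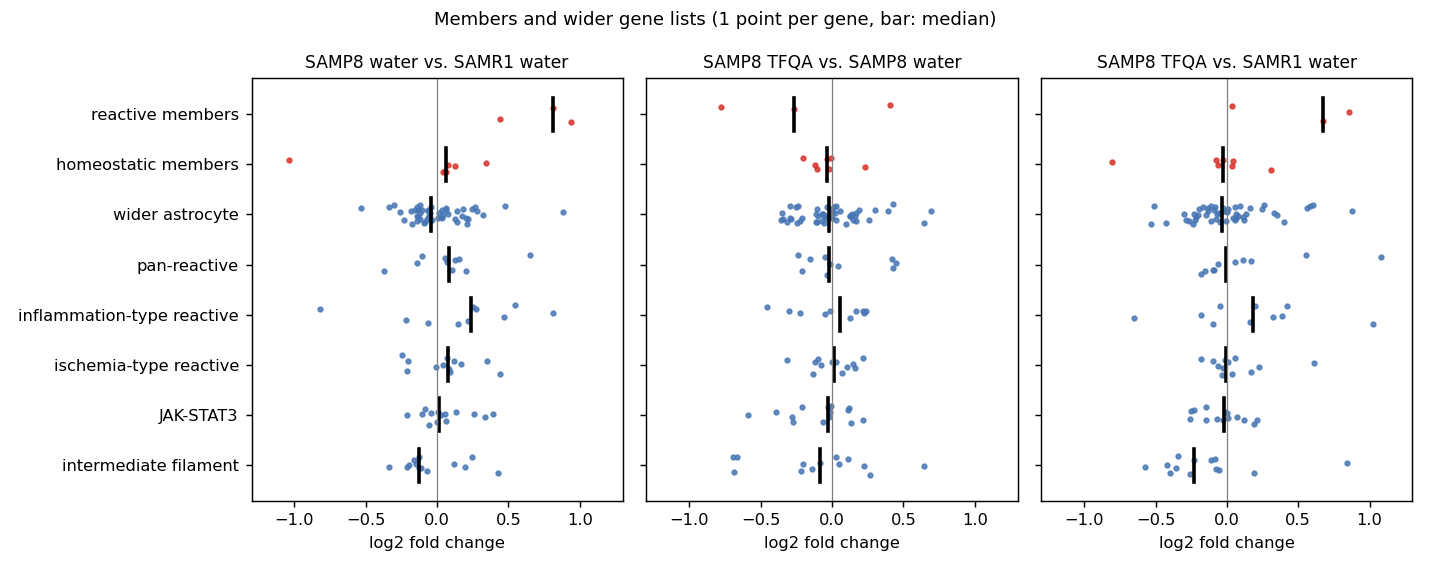
Log2 fold change (x axis) of every gene of the reactive and homeostatic markers and of the 6 wider lists (rows) in the 3 comparisons, with 1 point per gene and a bar at the list median. The medians of the reactive markers were 0.81, -0.27 and 0.67, and those of the wider astrocyte list were -0.045, -0.02 and -0.03.

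The JAK-STAT3 list, with 14 genes measured, had no gene past the study's threshold in SAMP8 water vs. SAMR1 water or in SAMP8 TFQA vs. SAMR1 water. Only Bcl3, a regulator of NF-kB signaling, was lower in SAMP8 TFQA vs. SAMP8 water, at -0.59 (adjusted p = 0.561, limma), at levels of 3.82 to 4.06 in SAMP8 TFQA that are among the dimmest. The medians were 0.01, -0.03 and -0.02 in the 3 comparisons. Of 13 other intermediate filament genes, none passed the study's threshold in SAMP8 water vs. SAMR1 water. Des, the muscle and pericyte filament desmin, was at 0.65 in SAMP8 TFQA vs. SAMP8 water (adjusted p = 0.561) and rose by 0.84 in SAMP8 TFQA vs. SAMR1 water (standard error 0.16, adjusted p = 0.0313, limma), with means of 4.78 ± 0.14 in SAMP8 TFQA, 4.13 (the same value on all 3 arrays) in SAMP8 water and 3.93 ± 0.20 in SAMR1 water (SD, n = 3 each). The epithelial keratins Krt8 and Krt18 were at -0.66 and -0.70 in SAMP8 TFQA vs. SAMP8 water (adjusted p = 0.561 and 0.592) and at -0.42 and -0.58 in SAMP8 TFQA vs. SAMR1 water. All 3 genes had group means among the dimmest 40%.

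Markers of other cell types also differed between SAMP8 water and SAMR1 water, where 3.4% of all transcripts were higher and 2.7% lower at the study's threshold. The mean log2 deviation of 10 endothelial markers from their means over all arrays was 0.02 to 0.07 in SAMP8 water and -0.28 to -0.16 in SAMR1 water, and 9 of the 10 genes had a positive difference, 2 of them past the study's threshold. For 10 markers of meningeal fibroblasts the deviation was 0.01 to 0.63 in SAMP8 water and -0.69 to -0.24 in SAMR1 water, with 9 of 10 differences positive and 4 past the study's threshold. For 9 markers of hippocampal neurons it was 0.01 to 0.51 in SAMP8 water and -0.18 to -0.02 in SAMR1 water. Here 6 of 9 differences were positive, with a median of 0.12, and 1, Spink8, was past both thresholds at 1.87. The deviation of this list without Spink8 was not computed. The groups did not overlap in any of these 3 lists. For 8 choroid plexus markers they overlapped, at 0.17 to 0.75 in SAMP8 water and -1.0 to 0.33 in SAMR1 water, with 8 of 8 differences positive and 5 past the study's threshold. All 8 striatal markers had a negative difference, with a median of -0.475 and none past the study's threshold, and their deviations overlapped (-0.93 to -0.19 in SAMP8 water and -0.79 to 0.66 in SAMR1 water). No marker of neurons in general, microglia or oligodendrocytes passed the study's threshold. Of 7 oligodendrocyte precursor markers 1 was higher at it, of 8 ependymal markers 1 was higher, and of 11 stem and newborn cell markers 1 was lower. The deviation of Gfap, Vim and Serpina3n together was 0.11 to 0.44 in SAMP8 water and -0.58 to -0.29 in SAMR1 water. The part of these cells in the astrocyte values was not tested. In SAMP8 TFQA endothelial deviations were 0.09 to 0.24 and meningeal deviations -0.27 to 0.53.

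In SAMP8 TFQA vs. SAMP8 water, where Serpina3n was lower at the study's threshold (3.76% of all transcripts), all 8 choroid plexus markers and all 9 markers of hippocampal neurons had a negative difference. Of these, 1 of 8 and 2 of 9 passed the study's threshold and none the adjusted one (limma). The choroid plexus deviation overlapped between the groups, at 0.37, -0.47 and -0.20 in SAMP8 TFQA and 0.17 to 0.75 in SAMP8 water. The deviation of hippocampal neuron markers did not, at -0.05, -0.50 and -0.04 in SAMP8 TFQA and 0.01 to 0.51 in SAMP8 water. In both lists SAMP8 TFQA replicate 2, the array lowest in Serpina3n, was the lowest of the SAMP8 arrays. Other lists lay higher in SAMP8 TFQA, where 3.36% of all transcripts were higher at the study's threshold. All 8 striatal markers had a positive difference (median 1.48, 1 past the study's threshold), with overlapping deviations. Endothelial deviations were 0.09 to 0.24, above 0.02 to 0.07 in SAMP8 water, with 1 of 10 markers past it. Those of stem and newborn cells were -0.01 to 0.05, above -0.08 to -0.03, with 1 of 11 past it. The part of any of these lists in the result was not tested. The 7 homeostatic genes together deviated by -0.11 to 0.06 in SAMP8 TFQA, -0.10 to 0.12 in SAMP8 water and -0.16 to 0.18 in SAMR1 water, which overlap throughout, with Ntsr2 included.

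**Figure D4:**
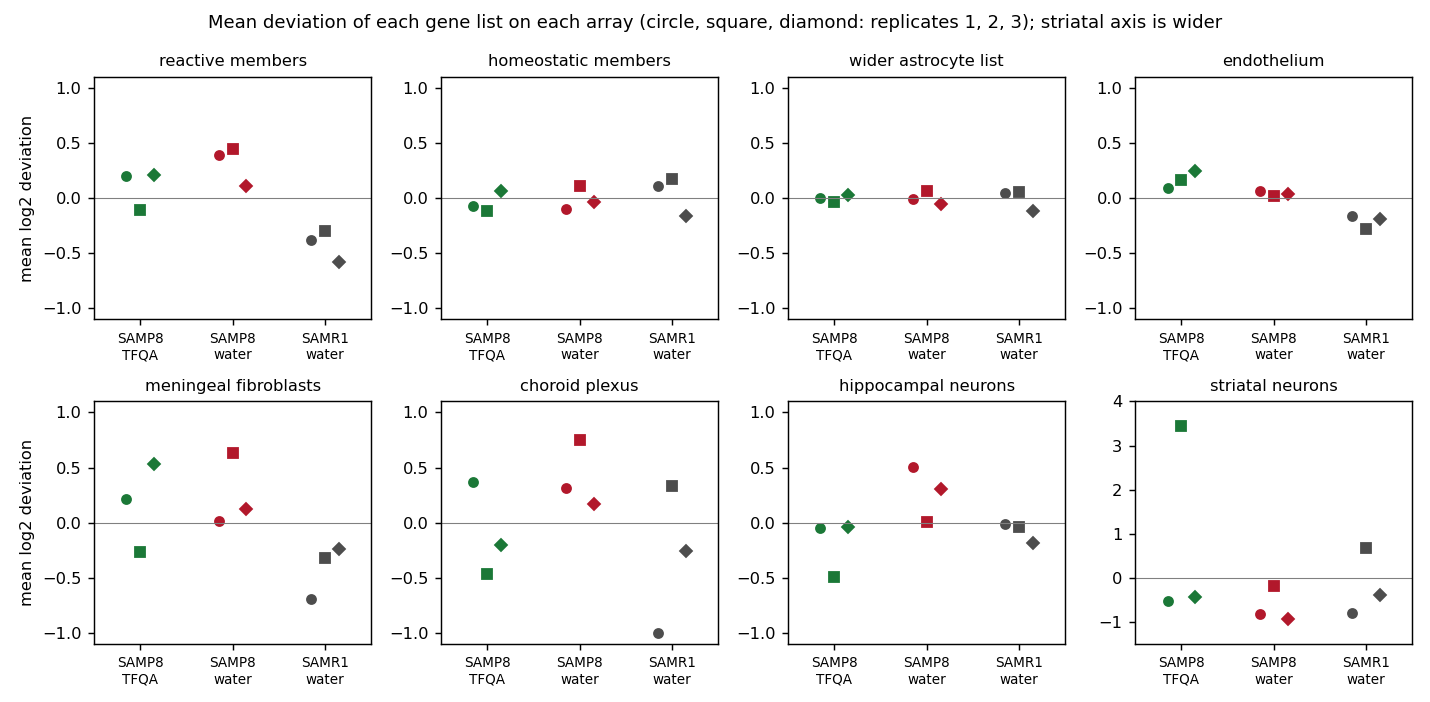
Mean log2 deviation (y axis) of 8 gene lists on each array of SAMP8 TFQA, SAMP8 water and SAMR1 water, relative to each gene's mean over the 9 arrays, with the replicate shown by the symbol. The reactive genes, endothelial and meningeal markers of all SAMP8 water arrays lie above those of all SAMR1 water arrays, and SAMP8 TFQA replicate 2 reaches 3.44 in the striatal panel, which has a wider axis.

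Single arrays weighed on the astrocyte genes unevenly. SAMP8 water replicate 2 was the highest of the 9 arrays in 5 of the 10 genes, and SAMR1 water replicate 3 was the lowest in 4 of the 10. Without SAMR1 water replicate 3 the median of the 10 genes in SAMP8 water vs. SAMR1 water was 0.045, and without SAMP8 water replicate 1 it was 0.23.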

How the data were processed

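The 10 genes and all gene lists were chosen with earlier results of these data known. Total RNA was extracted with ISOGEN, labelled with GeneChip WT PLUS reagents and scanned on a GeneAtlas. The paper names SST-RMA in the Transcriptome Analysis Console, and the submitters' processing notes name RMA and genome mm10. The RNA input differs between the paper and the labels. The deposited values are log2 signals, for which the authors corrected background, normalized between arrays and summarized probes into 1 value per transcript. Of 22206 transcripts, 19572 carry 1 gene symbol and 2634 none. The transcript with the highest mean was taken for each gene, and 208 of 224 list genes were measured. Arrays correlated at 0.9876 to 0.9934. Precision is limited by the number of arrays, with a median standard error of 0.190 for a log2 fold change.

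In R 4.3.3, limma 3.58.1 (lmFit, contrasts.fit, eBayes) fitted 1 coefficient per group over all 9 arrays and tested 3 comparisons, with no filter on low values. Benjamini-Hochberg adjustment ran over all transcripts of a comparison. The study's methods name a one-way ANOVA and do not state whether variances were moderated. A one-way ANOVA of the log2 values without moderation was an alternative. "Rose" and "fell" are used at an adjusted p under 0.05. The fit was tested on simulated data.

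All 10 genes are given. From each astrocyte, reactive, JAK-STAT3 and filament list, up to 3 genes with the smallest p past the study's threshold were named in each comparison, together with any past the adjusted threshold. Which marker lists of other cell types and which single arrays are described was decided after their values were seen. Deviations are means over a list of each gene's log2 signal minus its mean over the 9 arrays. Gene positions and promoters are from RefSeq (GRCm38.p6). Detection calls and qPCR were not analysed here.

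Alternatives were fits of only 2 groups, a replicate block, eBayes with trend and robust, quantile normalization again, centring on the array median, leaving out the dimmest 40%, ANOVA without moderation, array weights, the mean over the transcripts of a gene, and leaving out each array in turn.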

Additional observations from a re-analysis of the deposited data

How the results depend on the processing

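Each result of the 10 genes was recomputed under 18 alternatives. Of the 10 genes, the count at an adjusted p under 0.05 in SAMP8 water vs. SAMR1 water was 1, became 2 (Ntsr2 and Gfap) with eBayes with trend and robust and without the dimmest 40%, 0 with ANOVA without moderation (Ntsr2 adjusted p = 0.120), and lay between 0 and 1 when 1 array was left out. Ntsr2 passed in 12 of 18 alternatives and was lower in all of them. The mean over the transcripts of a gene, 1 of the 12, repeats the main fit, because each gene had 1 transcript. Leaving out a SAMP8 TFQA array kept the Ntsr2 difference at -1.04. Among the fits without an array of the compared groups, Ntsr2 passed only without SAMR1 water replicate 3 (adjusted p = 0.0393, limma). In SAMP8 TFQA vs. SAMR1 water the count became 1 (Ntsr2, adjusted p = 0.0171 and 0.0327 by limma) with eBayes with trend and robust and without the dimmest 40%. It was 0 in SAMP8 TFQA vs. SAMP8 water under every alternative. At the study's threshold the count in SAMP8 TFQA vs. SAMP8 water was 2 with the replicate block, 0 with ANOVA without moderation, and 0 (without SAMP8 water replicate 1) to 2 (without SAMP8 water replicate 2) when 1 array was left out. The other counts at that threshold lay between 3 and 4. The median of the 10 genes lay between 0.045 and 0.23 in SAMP8 water vs. SAMR1 water, -0.14 and -0.01 in SAMP8 TFQA vs. SAMP8 water, and -0.05 and 0.08 in SAMP8 TFQA vs. SAMR1 water when 1 array was left out. With centring on the median and with array weights, small differences in SAMP8 TFQA vs. SAMP8 water changed sign, Slc1a2 to 0.0133 and 6e-04, and S100b to 0.0033 and 0.0238. Leaving out 1 array also changed the sign of other values near 0. In SAMP8 water vs. SAMR1 water these ranged from -0.0767 to 0.33 in Aldh1l1, -0.0717 to 0.14 in Gja1, -0.13 to 0.18 in S100b and -0.0433 to 0.13 in Slc1a2. After TFQA, against SAMP8 water, they ranged from -0.36 to 0.05 in Aldh1l1, -0.18 to 0.15 in Aqp4, -0.20 to 0.0267 in Gja1, -0.17 to 0.17 in S100b and -0.0933 to 0.0767 in Slc1a2. Between SAMP8 TFQA and SAMR1 water they ranged from -0.18 to 0.085 in Aldh1l1, -0.19 to 0.08 in Gja1, -0.12 to 0.15 in S100b, -0.18 to 0.395 in Serpina3n, -0.0433 to 0.0867 in Slc1a2 and -0.17 to 0.0233 in Slc1a3. The cause was not tested. The replicate numbers pair no known animals. Deviations of arrays with the same number correlated at 0.0001 to 0.1525, and those with different numbers at -0.113 to 0.0695 (Pearson's r across genes). In every group replicate 2 was the lowest array in Serpina3n and the highest in Vim and S100b. No other of the 10 genes had replicate 2 at the same end in every group. Whether arrays with the same number share a batch was not tested. With the block Vim passed the study's threshold against SAMR1 water in SAMP8 water (log2 fold change 0.44) and against SAMP8 water in SAMP8 TFQA (0.41). The unadjusted p of Serpina3n in SAMP8 TFQA vs. SAMP8 water was 0.0136 without the block and 0.0039 with it (limma). Its adjusted p with the block was 0.509 (limma).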

Other observations

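The transcripts whose levels over the 9 arrays were most like the mean of Gfap, Vim and Serpina3n, out of 19569 named transcripts, were Olfr155, Vtn, Socs6, Vmn2r29 and Slc7a11, with Pearson's r of 0.952, 0.922, 0.921, 0.921 and 0.918, and 15 transcripts had an r over 0.9. Slc7a11 encodes the cystine-glutamate exchanger, Socs6 a suppressor of cytokine signaling and Vtn the adhesion protein vitronectin, while Olfr155 and Vmn2r29 are chemosensory receptor genes. For the mean of the 7 homeostatic genes they were Shc2, Fthl17d, Cylc2, AU021092 and Mrpl48, with r of 0.935, 0.930, 0.921, 0.921 and 0.920, and 7 transcripts had an r over 0.9. These values rank all named transcripts over 9 arrays in 3 groups and are a description only.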
